A study of Mus musculus with 18 samples.

Results

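Adult mammary fibroblasts were the stromal cells that remained among sorted epithelium of 10-week-old virgin female mice of 3 strains. They were chosen by their transcripts in the 5 adult libraries, as cells with at least 500 detected genes, under 20% mitochondrial UMIs (unique molecular identifiers, the counted RNA molecules), 10 or more UMIs of Col1a1, Col1a2, Col3a1 and Dcn together, at most 1 Epcam UMI and no Ptprc UMI. This gate kept 1281 cells of the 42858 adult cells that met the limits on genes and mitochondrial share, and of 133710 such cells in the 18 libraries of the series. The gland of FVB/NJ mice gave 3 libraries (A10, P7 and D12), with 175, 36 and 36 fibroblasts. The gland of C57BL/6 mice gave 1 library with 619 and that of SWISS mice 1 library with 415. For these libraries the labels name no treatment, transgene or mutant allele, and estrus stage was not determined. Libraries of other stages, some from GFP reporter mice by the paper, are only set beside them and are described below. By the paper's methods each library pooled glands of 3 to 4 mice, while a figure legend of the paper gives 5 for adult C57BL/6. Cells were sorted against Ter119, CD31 and CD45 and by CD24 and CD29, a sort meant to keep epithelium and to remove blood and endothelial cells, so the fibroblasts are the fraction that passed it.

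Fibroblasts build the interstitial matrix of collagen fibrils, proteoglycans and elastic fibres in which mammary ducts lie, and they send growth factors and WNT signals to the epithelium. In many mouse tissues, fibroblasts that express Pi16, a secreted protease-inhibitor-like glycoprotein, together with Dpp4 and Cd55, lie in the adventitia and in fascia and are known as an early state in the fibroblast lineage. Col15a1 fibroblasts, which also carry basement membrane collagen, and committed preadipocytes are known as further states of the parenchyma and of fat.

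Levels are given as CPM, UMIs per 1000000 UMIs of the summed cells. Summed fibroblast UMIs ran from 96640 in P7 to 2628726 in C57BL/6, with a median of 2588 to 5670.5 UMIs per cell over the 5 libraries against 2576 to 7191.5 in other cells. The library labelled FVB/NJ D12 stood apart from the other libraries of its label in some genes that differed between strains. Of 17 genes at least 8-fold apart between the C57BL/6 and SWISS libraries in fibroblasts and in other cells alike, D12 lay nearer to C57BL/6 in 16, A10 in 7 and P7 in 11. The other 9 libraries labelled FVB/NJ did so in 5 to 11 of the 17 and the 6 further libraries labelled C57BL/6 in 7 to 13, and cell cycle genes (Top2a, Pclaf and Ube2c) are among the 17, so this count does not assign a strain. Over all kept cells D12 lay outside the range of the other 9 libraries labelled FVB/NJ in 9 of the 17. Over all kept cells Rpl29, a ribosomal protein gene, stood at 1995 CPM in D12, 1282 to 2593 in the 7 libraries labelled C57BL/6, and 9.80 to 577 in the other 9 labelled FVB/NJ. Rab6b, a small GTPase gene, stood at 8.99 in D12 and at 0.0678 to 0.606 in those 9, while the libraries labelled C57BL/6 ran from 0.485 to 19.5, lowest in pubertal end buds and ducts. Both genes were chosen after their values were seen, the reason was not tested, and FVB/NJ values are given for each library below so that D12 can be set aside.

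The fibroblast share of kept cells differed between libraries by more than counting error. It was 1.58% in A10 (exact 95% binomial interval 1.36 to 1.83), 1.09% in P7 (0.764 to 1.5) and 0.644% in D12 (0.452 to 0.891). It was 4.93% in C57BL/6 (4.56 to 5.32) and 4.01% in SWISS (3.64 to 4.40). The 3 FVB/NJ libraries were thus lower than the other two, with or without D12. Strain and processing cannot be told apart here, because the C57BL/6 and SWISS libraries were processed together and apart from those of FVB/NJ. Without cells carrying markers of other types (below) the shares were 1.33%, 0.786%, 0.161%, 4.53% and 3.73% in A10, P7, D12, C57BL/6 and SWISS, with 9 cells left in D12. Between 3 and 17 cells per library sat just under the gate at 9 collagen and decorin UMIs, and 1 to 9 just inside it at 10.

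Most gated cells held Pi16 transcripts, and more of them did so in C57BL/6 and SWISS than in the libraries labelled FVB/NJ. Pi16-positive cells (1 or more UMIs) were 113 of 175 in A10 (64.6%, exact 95% interval 57 to 71.6), 19 of 36 in P7 (52.8%, 35.5 to 69.6) and 27 of 36 in D12 (75.0%, 57.8 to 87.9). They were 563 of 619 in C57BL/6 (91.0%, 88.4 to 93.1) and 381 of 415 in SWISS (91.8%, 88.7 to 94.3). The interval of A10 lay below those of C57BL/6 and SWISS, whereas those of C57BL/6 and SWISS overlapped. With every cell thinned to 1500 UMIs, and shallower cells left out (2, 7, 1, 29 and 10 cells), the shares were 57.8%, 62.1%, 74.3%, 87.8% and 90.6% in A10, P7, D12, C57BL/6 and SWISS, in the same order except that P7 and A10 changed places. In the other cells of the same libraries the share with a Pi16 UMI was 0.336% to 2.77%. With 20 collagen and decorin UMIs in the gate in place of 10, the shares rose to 68.5%, 73.1%, 96.3%, 93.6% and 93.8%, and D12 then lay above C57BL/6 and SWISS with 1 Pi16-negative cell left. Without cells that carried markers of other types (below) they were 73.5%, 69.2%, 88.9%, 94.9% and 94.3%.

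**Figure D1:**
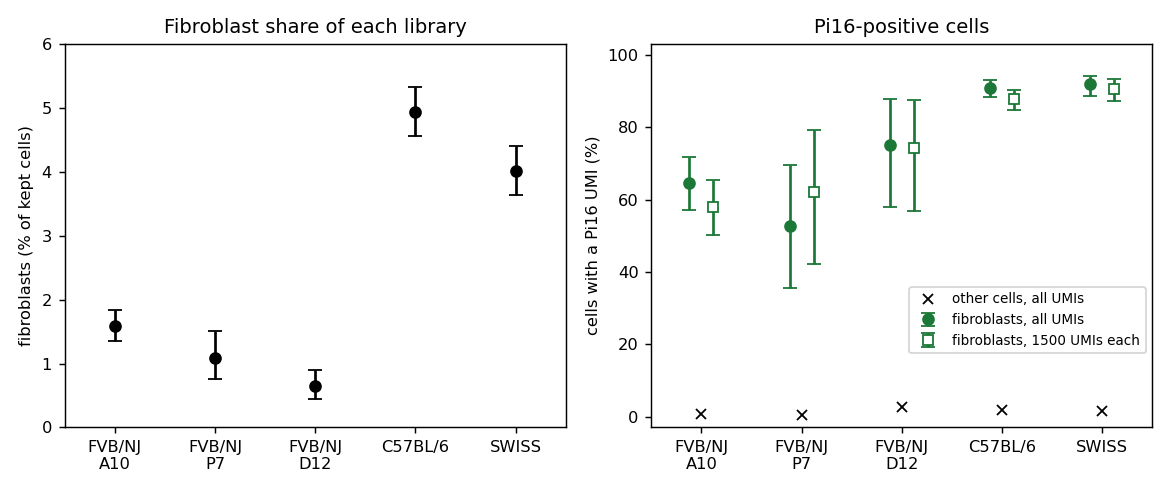
Left, fibroblasts as a percentage of kept cells in each of the 5 adult libraries; right, percentage of cells with a Pi16 UMI in fibroblasts (filled, all UMIs; open, cells thinned to 1500 UMIs) and in other cells (crosses). Bars are exact 95% binomial intervals, and they cover counting error only. C57BL/6 and SWISS stand highest in both panels, at 4.93% and 4.01% fibroblasts.

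Fibroblasts carried the markers of their name in every library. The share of them with a Dpt UMI (dermatopontin, a collagen-binding matrix protein that the gate did not use) was 84.0%, 66.7%, 77.8%, 94.3% and 94.0% in A10, P7, D12, C57BL/6 and SWISS, against 0.0611% to 1.56% of other cells. Dpt stood at 1089, 1552, 905, 1948 and 1419.7 CPM in fibroblasts and at 1.21 to 14.7 in other cells. Pdgfra, the receptor for platelet-derived growth factor that marks mesenchyme, had a UMI in 47.4%, 13.9%, 41.7%, 47.5% and 44.6%. The gate cut the cells by collagens and decorin, so differences from other cells describe the cells chosen and carry no test.

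By that description, 608 of 22684 genes (2.68%) stood 2-fold or more higher in fibroblasts than in other cells in all 5 libraries, and 362 (1.6%) lower, on log2 of CPM plus 5. The 12 furthest apart in their least different library were all secreted or surface products apart from Ifi27l2a, an interferon-inducible gene. Fn1 (fibronectin) stood at 1275, 1252, 976, 3389.9 and 3318 CPM in A10, P7, D12, C57BL/6 and SWISS. It stood at 1.24 to 27.4 in other cells. Igfbp6, which binds insulin-like growth factor, stood at 2549, 4377, 2332, 4209.6 and 3519.6, against 4.97 to 37.4. The library sums of both genes did not overlap between fibroblasts and other cells, which the choice of genes by this difference largely fixed. Within fibroblasts Fn1 was highest in C57BL/6 and SWISS. Clec3b (tetranectin) stood at 1654 to 3529 in fibroblasts, Mfap5 (a microfibril protein) at 1068 to 3094, Pcolce2 (an enhancer of procollagen cleavage) at 649 to 1179.8 and Tnfaip6 (a hyaluronan-binding protein) at 658 to 3104. The complement inhibitor Serping1 stood at 811 to 2618, the surface sialomucin Cd248 at 374 to 1090.3, the chemoattractant Rarres2 (chemerin) at 597 to 1134 and the elastin crosslinker Loxl1 at 374 to 708. Ifi27l2a varied most of these 12, from 300.1 in P7 to 3512 in A10.

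**Figure D2:**
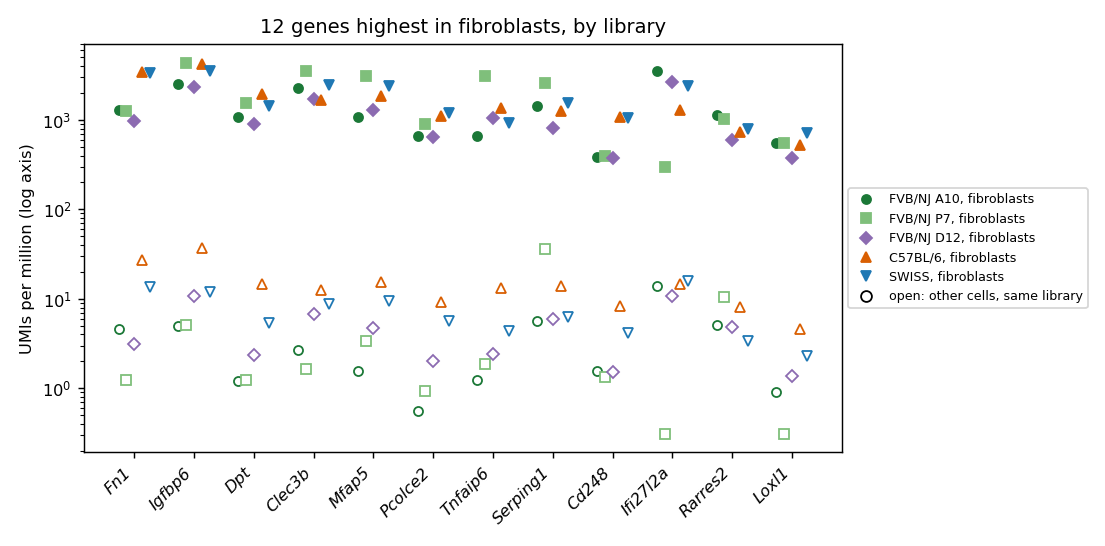
CPM (log axis) of the 12 genes with the largest smallest-of-5-libraries difference, in fibroblasts (filled) and in the other cells of the same library (open); each symbol is 1 library. Every filled symbol lies above every open symbol of its gene, and the smallest log2 difference of any library among these genes was 5.79, for Loxl1.

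The matrix lists followed the same description. With the 4 gate genes left out, 7 of 10 listed collagens stood 2-fold or more higher in all 5 libraries, of proteoglycans and matrix glycoproteins 13 of 20, of elastic fibre genes 13 of 14 and of collagen processing genes 8 of 11 (2.68% of all genes). The median log2 difference over these 54 other matrix genes was 3.49, 3.13, 3.12, 3.83 and 4.33 in A10, P7, D12, C57BL/6 and SWISS. Of 16 fibroblast transcription factor genes 12 were higher in all 5. Klf4 stood at 942 to 1950.0 CPM in fibroblasts and 252 to 839.5 in other cells, and Twist2, a mesenchymal regulator, at 12.6 to 31.0 and 0.228 to 1.13. Tcf21, a regulator known from fibroblasts of other organs, had no UMI in A10, D12 and C57BL/6, 1 in P7 and 3 in SWISS.

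Genes of signals to the epithelium were described in the same way, beside 2.68% of all genes higher and 1.6% lower. Of 23 growth factor genes 6 were 2-fold or more higher in fibroblasts in all 5 libraries and 1 was lower. Igf1, a growth factor of ductal outgrowth, stood at 259, 124, 104, 85.6 and 127 CPM in fibroblasts and at 0.325 to 1.31 in other cells. Fgf7 stood at 46.2, 62.1, 14.2, 15.6 and 20.9, and Fgf2 at 48.6, 20.7, 66.4, 97.8 and 208. Fgf10 had no UMI in P7 and D12 and stood at 5.71 to 19.1 elsewhere. Of the WNT list 3 of 15 were higher in all 5, among them Wnt2 at 73.5 to 194. Sfrp1, a secreted WNT inhibitor, split the libraries instead, at 609 in A10 and 269 in P7 against 4.74 in D12, 28.9 in C57BL/6 and 32.9 in SWISS. Of 14 entries of the chemokine and cytokine list 9 were higher, of complement genes 7 of 10, with C3 at 475, 776, 412, 1807 and 1594. Of the receptors 5 of 14 were higher and Pgr, the progesterone receptor, stood at 0 to 40.7 in fibroblasts against 27.6 to 139 in other cells. Immediate early and heat shock genes, known to rise during tissue dissociation, were 2-fold higher in all 5 libraries for 0 of 15 genes, and Fos stood at 2310.4 to 5195 in fibroblasts and 2050.1 to 6485 in other cells.

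Markers of other cell types were counted before the fibroblasts were split. The summed level of the 8 luminal markers was 486 to 2081 CPM in fibroblasts and 8603 to 24164 in other cells. The sum of the 8 basal markers was 534 to 7719 against 2892 to 11145, with P7 and D12 highest in fibroblasts at 7719 and 5304. The sum of the 7 Schwann cell markers was 33.2 to 393 against 47.6 to 66.3, highest in P7 and next in A10 (198). The sum of the 7 fat cell markers was 0 to 83.2 against 7.39 to 57.7, highest in SWISS and at 0 in P7 and D12. Sums over endothelial (7 genes), mural (8), immune (8), tendon and mesothelial (6) and red cell markers (5) reached at most 27.8, 62.1, 71.1, 15.4 and 4.74, against 11.8 to 32.7, 27.9 to 88.3, 1.57 to 11.4, 7.83 to 26.2 and 8.48 to 52.1 in other cells. The immune sum was highest in A10, at 71.1 in fibroblasts and 1.78 in other cells, all of it from Cd3e, Cd79a and Coro1a with the other 5 immune markers at 0, and it was 0 in P7, D12 and C57BL/6. Its part in the results was not tested. Of the fat cell markers, Adipoq, Cidec and Lep were at 0 in fibroblasts of every library. Fabp4 had UMIs in A10, C57BL/6 and SWISS, Plin4 in C57BL/6 and SWISS, Cidea in C57BL/6 and Plin1 in SWISS. The fat cell sum was 83.2 in SWISS fibroblasts against 32.1 in other cells. It was 59.2 against 57.7 in A10 and 38.4 against 39.1 in C57BL/6. Cells with more than 5 keratin UMIs numbered 17 of 175 in A10, 6 of 36 in P7, 27 of 36 in D12, 37 of 619 in C57BL/6 and 18 of 415 in SWISS. D12 thus stood apart here too, with over 5 keratin UMIs in 75.0% of its gated cells.

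Pi16-negative cells differed from Pi16-positive cells in these markers. Among the 178 Pi16-negative cells, 26 carried 3 or more of the 7 Schwann cell markers, against 0 of 1103 Pi16-positive cells. More than 5 keratin UMIs were found in 48 of the 178 and in 57 of the 1103. None of the marker sets was reached in 106 (59.6%) of the negative and in 1045 (94.7%) of the positive cells. Counts below are therefore also given without the cells that carry such markers, called other-type cells here. Pdgfra had a UMI in 46.0%, 15.8%, 51.9%, 49.2% and 44.9% of positive cells in A10, P7, D12, C57BL/6 and SWISS, and in 50%, 11.8%, 11.1%, 30.4% and 41.2% of negative cells, so A10 went the other way from the remaining libraries. Median depth was 2977 to 5643 UMIs in positive and 2006 to 6839 in negative cells.

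**Figure D3:**
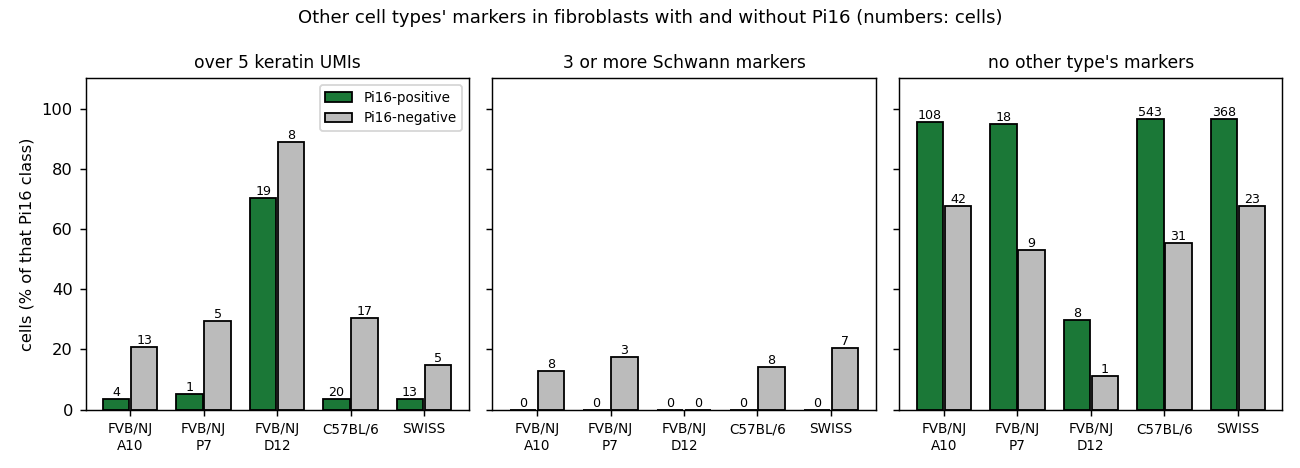
Percentage of Pi16-positive (green) and Pi16-negative (grey) fibroblasts of each library with over 5 keratin UMIs, with 3 or more Schwann cell markers, and with none of the marker sets of other cell types; numbers above bars are cells. Cells with 3 or more Schwann markers appear among Pi16-negative cells of 4 of 5 libraries and among no Pi16-positive cells, and D12 is mostly keratin-bearing in both classes.

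To ask what separates the 2 classes, counts were summed over Pi16-positive and over Pi16-negative cells of each library and compared by edgeR's quasi-likelihood test with the library as a block. D12, with 9 Pi16-negative cells, did not enter the fit, which used A10, P7, C57BL/6 and SWISS. Pi16 itself chose the classes and was not tested, and it stood at 2938, 11107, 3786, 3205 and 4151 CPM in Pi16-positive cells of A10, P7, D12, C57BL/6 and SWISS. Of 3477 genes tested, 709 differed at an adjusted p under 0.05 (20.4%), 394 higher in Pi16-positive cells (11.3%) and 315 lower (9.06%). Without cells holding over 5 keratin UMIs or any UMI of a short set of vascular and Schwann cell markers (a fit of 3 libraries, since P7 then had 8 negative cells), 561 of 4271 differed (13.1%), 294 higher (6.88%) and 267 lower (6.25%), with 366 genes in both sets. DESeq2, given 15809 genes and with its own filter on mean counts, called 327 higher and 499 lower around an all-gene median of log2 -0.27. For those 15809, edgeR without a count filter called 826 and 650 around 0.19. On the 3477 genes edgeR without TMM called 346 higher and 335 lower around -0.04. A gene could pass the count filter through the sums of one class alone, also where this is not said of it below, so counts over list members are descriptions. The p-values measure how the difference between classes varied over libraries of pooled mice. Differences in level between libraries were taken out by the block.

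The largest rises in Pi16-positive cells included surface, enzyme and secreted genes. The rises and falls named here are the 12 largest of each among called genes with a mean of at least 20 CPM and one sign in all 5 libraries. Cd55 (decay-accelerating factor, a complement inhibitor on the cell surface) stood at 275, 736, 334, 527 and 525 CPM in Pi16-positive cells of A10, P7, D12, C57BL/6 and SWISS. It stood at 13.9, 23.7, 0, 21.9 and 31.2 in Pi16-negative cells (log2 4.42, SE 0.295, edgeR adjusted p = 8.5e-08). Every positive sum lay above every negative sum. Anxa3, an annexin, stood at 1289, 3788, 1491, 2335 and 1728 against 90.3, 94.7, 46.8, 123 and 81.2 (log2 4.34, SE 0.243, edgeR adjusted p = 1.49e-08). Car8, a carbonic anhydrase relative without catalytic activity, stood at 133, 165, 143, 193 and 180.0 and had 1 UMI in all Pi16-negative cells together (log2 6.73, SE 0.576, edgeR adjusted p = 7.49e-07). Aldh1a3, which makes retinoic acid, stood at 272, 515, 170.2, 263 and 355 against 6.95, 0, 15.6, 8.76 and 0 (log2 5.77, SE 0.445, edgeR adjusted p = 3.7e-07). These 4 genes were higher in 5 of 5 libraries, D12 included, as the naming rule required. With cells thinned to 1500 UMIs the log2 was 2.74 for Cd55 and 2.82 for Anxa3. Without SWISS, the library of the 1 negative UMI, that of Car8 was 9.62, which is no bound since no negative UMI was left. Car8 could not be tested after thinning. Cd55, Car8 and Aldh1a3 could pass the count filter only through positive cells.

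The other 8 of the 12 largest rises had the same direction in every library, as the naming rule required. Stmn4, a stathmin that binds tubulin, stood at 39.6 to 147 CPM in positive cells and had no UMI in any negative cell, so its fitted log2 of 8.38 is no bound. Chst1, a sulfotransferase, had log2 5.75, Akr1c18, which inactivates progesterone, 5.31, and Tek, the angiopoietin receptor otherwise known from endothelium, 4.71. Tek stood at 68.1 to 276 in positive cells, in which the 7 endothelial markers summed to 0 to 29.2. Wnt10b, a WNT ligand, had log2 4.69 and Ptgs2, the inducible cyclooxygenase, 4.25. Sbsn and Dmkn (suprabasin and dermokine, secreted proteins known from epidermis) had log2 4.85 and 4.73. Sbsn stood at 609.6, 772, 545, 524 and 243 against 27.8, 71.0, 31.2, 8.76 and 0, and Dmkn at 723, 349, 245, 253 and 88.7 against 45.2, 0, 0, 0 and 0. Both genes were highest in A10 or P7 and lowest in SWISS among positive cells. Negative cells alone would not have carried Stmn4, Sbsn or Dmkn past the count filter, and for the other rises here this is not reported. Thinning to 1500 UMIs gave log2 2.75 for Akr1c18, 2.73 for Tek and 1.65 for Ptgs2, each still past the test. Without A10 the log2 was 10.17 for Dmkn and 8.95 for Wnt10b, and without SWISS 8.79 for Chst1, since few or no negative UMIs were then left, and these values are no bounds.

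**Figure D4:**
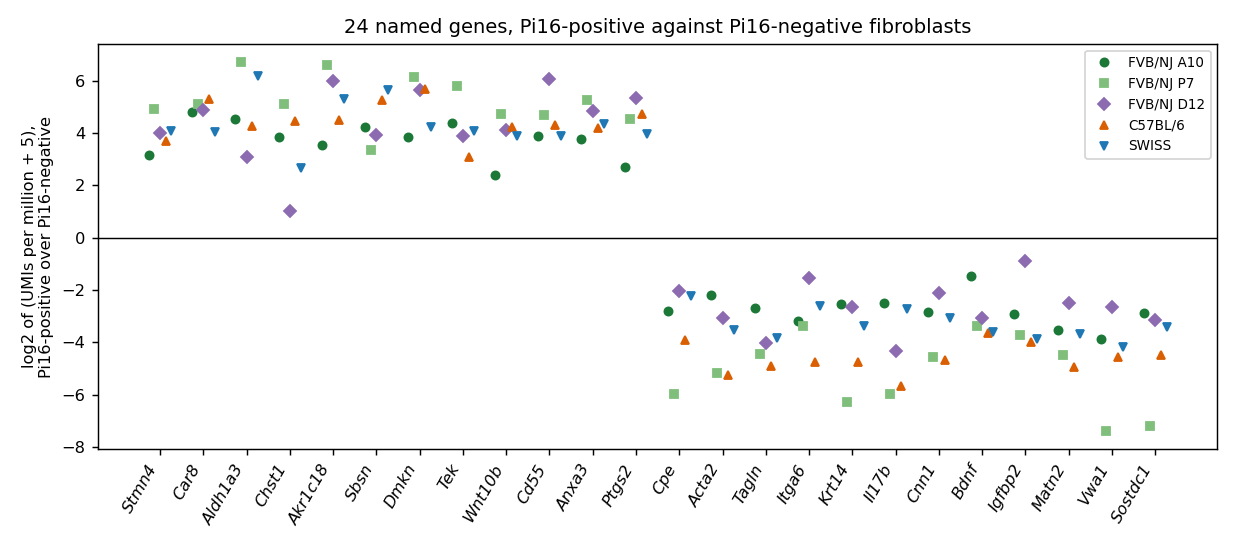
Log2 ratio of CPM plus 5, Pi16-positive over Pi16-negative fibroblasts, in each of the 5 libraries for the 12 largest rises and 12 largest falls; each symbol is 1 library and the line marks no difference. All symbols lie on the side of their gene's fitted change, which the naming rule required, and D12, outside the fit, lies nearest to 0 for Chst1 and Igfbp2.

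Promoter sequences are shown for Pi16, which defines the classes, for Cd55, and for Sbsn and Dmkn, which lie on one stretch of chromosome 7 and rose together. They are RefSeq sequences of GRCm38.p6, the build of the counts, from 250 bases before to 50 after the first start listed, 5′ to 3′ on the gene's strand. Capitals mark CAGCTG, an E-box of mesenchymal bHLH factors, in Pi16 (chr17:29318632-29318931, plus strand) and Cd55 (chr1:130462695-130462994, minus strand), and TGANTCA, the AP-1 motif, in Sbsn (chr7:30751221-30751520, plus strand) and Dmkn (chr7:30763506-30763805, plus strand). GENCODE M21 places the genes at chr17:29317680-29330593, chr1:130439027-130462744, chr7:30751471-30756134 and chr7:30763756-30781063, so its first start of Pi16 lies upstream of the window shown and those of the others inside it.
Pi16: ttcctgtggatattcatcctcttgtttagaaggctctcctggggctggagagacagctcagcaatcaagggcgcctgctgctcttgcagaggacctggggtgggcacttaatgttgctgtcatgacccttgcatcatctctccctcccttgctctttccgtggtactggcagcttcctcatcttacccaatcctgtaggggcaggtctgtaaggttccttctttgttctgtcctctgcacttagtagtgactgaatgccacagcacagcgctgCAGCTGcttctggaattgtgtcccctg
Cd55: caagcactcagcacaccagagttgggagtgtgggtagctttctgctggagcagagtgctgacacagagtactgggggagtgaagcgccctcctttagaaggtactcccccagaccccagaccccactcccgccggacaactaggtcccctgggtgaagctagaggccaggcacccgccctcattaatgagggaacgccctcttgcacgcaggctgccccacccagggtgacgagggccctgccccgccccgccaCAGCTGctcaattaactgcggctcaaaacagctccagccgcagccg
Sbsn: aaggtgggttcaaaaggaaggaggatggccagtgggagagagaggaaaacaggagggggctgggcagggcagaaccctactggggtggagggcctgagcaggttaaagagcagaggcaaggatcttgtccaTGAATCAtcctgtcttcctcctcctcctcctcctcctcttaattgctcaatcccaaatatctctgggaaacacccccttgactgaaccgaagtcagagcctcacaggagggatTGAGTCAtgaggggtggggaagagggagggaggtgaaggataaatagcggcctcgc
Dmkn: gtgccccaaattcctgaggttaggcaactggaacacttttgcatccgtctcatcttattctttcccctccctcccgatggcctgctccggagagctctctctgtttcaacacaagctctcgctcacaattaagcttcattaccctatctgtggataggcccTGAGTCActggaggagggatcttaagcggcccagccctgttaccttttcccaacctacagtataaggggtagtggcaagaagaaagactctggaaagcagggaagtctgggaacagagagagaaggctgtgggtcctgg
Both motifs read the same on the 2 strands and do not overlap here. CAGCTG was present in 21.7% of the 300 promoters matched to genes higher in Pi16-positive cells, 15.4% of 221 matched to genes lower, 13.5% of 2713 tested genes and 16.1% of all 27025 promoters. TGANTCA was present in 7.33%, 7.69%, 5.09% and 7.93%, and GGAATG (the TEAD motif, searched on both strands) in 14.7%, 14.9%, 11.8% and 14.6%. Of the 12 largest rises 8 matched a promoter, of which 1 held CAGCTG and 2 TGANTCA, while those of Chst1, Akr1c18, Tek, Wnt10b and Ptgs2 held neither. The matches describe letters in these windows and no binding was measured.

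Of the 16 Pi16 and Dpp4 fibroblast genes other than Pi16, 13 passed the count filter, among them Stmn4, which had no UMI in a negative cell and so could pass only through positive cells. The 13 that passed were higher in Pi16-positive cells (11.3% of all genes), and 15 of 15 without the other-type cells (6.88%), which the filter in part fixes. Dpp4, a dipeptidyl peptidase that trims chemokines, stood at 201, 257, 320.1, 492 and 478 CPM in positive and 20.8, 47.3, 15.6, 8.76 and 25.0 in negative cells (log2 4.15, SE 0.384, edgeR adjusted p = 1.44e-06). Sema3c, a secreted guidance cue, stood at 539, 405, 688, 1090.2 and 1075 against 62.5, 0, 109, 175 and 93.7 (log2 3.18, SE 0.292, edgeR adjusted p = 1.37e-06). Efhd1 (log2 4.02), Uchl1 (3.93), Cd248 (2.67), Ly6c1 (2.67), Ackr3 (2.56), Pcolce2 (2.49), Creb5 (2.33) and Wnt2 (2.17) also rose. 

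Genes of Col15a1 fibroblasts and preadipocytes went the other way. Of 12 tested members 11 were lower in Pi16-positive cells (9.06% of all genes) and 12 of 12 without the other-type cells (6.25%). Col15a1 could pass the count filter only through negative cells, so the filter in part fixes these counts. Col15a1 stood at 21.6, 0, 34.0, 14.2 and 9.92 CPM in positive and 108, 71.0, 15.6, 193 and 406 in negative cells (log2 -3.95, SE 0.390, edgeR adjusted p = 2.66e-06), lower in 4 of 5 libraries and not in D12. The basement membrane chains Col4a1 (log2 -2.60) and Col4a2 (-3.17), the adhesion molecule Icam1 (-2.03), the lipid-droplet regulator G0s2 (-3.57), lipoprotein lipase Lpl (-1.19), Apoe (-3.44), the fatty acid carrier Fabp4 (-4.30) and Sparcl1 (-3.76) fell. Fabp4 stood at 52.1, 0, 0, 8.33 and 7.94 in positive and 72.9, 0, 0, 337 and 781 in negative cells, with the gap in C57BL/6 and SWISS. Cells with both a Pi16 and a Col15a1 UMI numbered 7, 0, 2, 12 and 7 in A10, P7, D12, C57BL/6 and SWISS, and cells with Col15a1 alone 23, 1, 1, 24 and 19. Ccl11, a list member, did not pass (log2 -0.08, adjusted p = 0.898).

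Matrix genes split by class, beside 11.3% of all genes higher and 9.06% lower, or 6.88% and 6.25% without the other-type cells. Of 13 tested elastic fibre genes 8 were higher in Pi16-positive cells and 1, Lox, was lower. Fbn1 (fibrillin, the microfibril scaffold) stood at 892, 864, 749, 1904 and 1864 against 188, 47.3, 62.4, 280.3 and 299.8 (log2 2.72, SE 0.234, edgeR adjusted p = 7.69e-07). Eln (elastin) had log2 2.21 and Mfap5 2.55, and each kept its call without the other-type cells (log2 2.02, 1.85 and 1.61 for Fbn1, Eln and Mfap5), where 5 of 14 elastic fibre genes were higher and 1 lower. The gate genes Col1a1, Col1a2, Col3a1 and Dcn chose the cells and are left out of the counts. Of the other 9 collagens tested Col14a1, which coats fibrils, was higher (log2 1.78, 1.47 without other-type cells), and Col5a2 and Col16a1 were lower. Without the other-type cells 1 of 9 was higher and 4 lower, Col5a2, Col5a3, Col6a1 and Col6a2. Of the other 17 proteoglycans and glycoproteins 7 were higher, Ogn, Aspn, Vcan, Dpt, Fn1, Tnxb and Ecm1, and 6 lower, Lum, Bgn, Postn, Sparc, Sparcl1 and Mfap4, and without the other-type cells 6 and 7. Dpt had log2 1.90, Tnxb (tenascin-X) 2.27, Bgn (biglycan) -2.53 and Postn (periostin) -1.72. Of 10 collagen processing genes 3 were higher and 1 lower, and without the other-type cells 2 and 4. The call of Fn1 (log2 1.63) was lost without the other-type cells (log2 0.51, adjusted p = 0.107).

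Secreted regulators differed by family member, beside 11.3% of all genes higher and 9.06% lower (6.88% and 6.25% without the other-type cells). Of the 6 IGF binding proteins Igfbp4, Igfbp5 and Igfbp6 were higher (log2 1.76, 2.38 and 2.08) and Igfbp2, Igfbp3 and Igfbp7 lower (-4.21, -2.22 and -3.28). Igfbp5 stood at 4219, 3108, 4433, 10599 and 8396 CPM in positive and 782, 1538, 2620.2, 2715 and 543 in negative cells. Igfbp7 stood at 281, 368, 266, 92.1 and 75.4 and 1431, 2674, 764, 1883 and 906. Igfbp2 did not pass the count filter without the other-type cells, while the other 5 kept their direction there and 3 were higher and 2 lower. Of 10 growth factor genes tested Tgfb2 was higher (log2 1.93) and Nrg1, Pdgfa, Gas6 and Kitl were lower (-3.57, -3.67, -2.51 and -2.62), and without the other-type cells 3 of 9 were higher and 4 lower. Igf1 and Fgf7 did not pass (log2 -0.88 and -0.82, adjusted p = 0.0792 and 0.235). Of 5 WNT list members Wnt2 and Sfrp4 were higher (log2 2.17 and 1.77) and Sfrp1 and Sfrp2 lower (-1.88 and -0.80), and without the other-type cells 3 of 6 were higher and 2 lower. Of 9 receptors Fgfr1 and Tgfbr2 were higher (log2 1.01 and 2.69) and none was lower, whereas without the other-type cells 2 of 11 were higher and 3 lower.

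Immune signals went in both directions, beside those same shares of all genes, 11.3% and 9.06%, or 6.88% and 6.25%. Of 11 chemokine and cytokine genes 5 were higher, Ccl2, Ccl7, Il33, Csf1 and Ackr3, and 2 lower, Cxcl12 and Cxcl14. Il33, an alarmin, stood at 131, 184, 102, 245 and 149.5 against 69.5, 0, 0, 35.0 and 0 CPM (log2 2.35, SE 0.468, edgeR adjusted p = 0.00145). Cxcl12, which retains leukocytes, stood at 77.3, 55.2, 81.7, 46.7 and 57.6 against 181, 379, 281, 315 and 206 (log2 -2.01, SE 0.288, edgeR adjusted p = 6.98e-05). The calls of Ccl7 and Csf1 were lost without the other-type cells (log2 0.13 and 0.30, adjusted p = 0.828 and 0.57). In all, 3 of 12 chemokine and cytokine genes were then higher and 4 lower. Of 7 complement genes C3, Cd55 and Serping1 were higher and none was lower, and without the other-type cells 2 of 7 were higher. Of 15 proteases and inhibitors tested 6 were higher, Mmp23, Timp2, Timp3, Adamts5, Serpinf1 and Htra3, and 3 lower, among them Mmp3 and Timp1. Without the other-type cells 4 of 16 were higher and 6 lower. Of 4 MHC genes tested B2m was higher (log2 0.86), a call that was lost without the other-type cells (adjusted p = 0.479). Of 11 transcription factors Prrx1, Osr1, Osr2, Ebf1, Ebf2 and Creb5 were higher and none was lower, and without the other-type cells 3 of 12 were higher and 2 lower. Of 14 immediate early and heat shock genes tested 0 were higher and 7 lower, Fos, Fosb, Jun, Junb, Ier2, Ier3 and Hspa1a, with Jun at 530.5, 1361, 1308, 1127 and 1321 against 1435, 4046, 1513, 3184 and 2967 (log2 -1.37, SE 0.172, edgeR adjusted p = 2e-05), and without the other-type cells 0 of 14 were higher and 8 lower. The median mitochondrial share was 2.12%, 0.195%, 1.75%, 2.01% and 2.02% in positive and 2.84%, 0.254%, 3.46%, 3.79% and 3.81% in negative cells of A10, P7, D12, C57BL/6 and SWISS, and its part was not tested.

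The 12 largest falls, chosen by the same rule, included genes of myoepithelial cells. Kcna1, a potassium channel on the Schwann cell list, fell further but is not one of the 12. It stood at 0, 0, 0, 1.67 and 0 against 261, 260.3, 0, 232 and 206 (log2 -7.76, SE 0.432, edgeR adjusted p = 1.49e-08), and none was found in D12. Kcna1 could pass the count filter only through negative cells, and which of the 12 falls did so is not reported here. Of the basal epithelial markers 6 of 6 tested were lower (9.06% of all genes), Krt5, Krt14, Krt17, Acta2, Cnn1 and Mylk. Without the other-type cells Acta2 was the 1 basal marker that could be tested, and its log2 was then -1.64 and that of Tagln -1.82. Acta2 (smooth muscle actin) stood at 374, 294, 1049, 138 and 126 against 1723, 10933, 8812, 5439 and 1518 (log2 -3.96, SE 0.412, edgeR adjusted p = 3.82e-06), and Cnn1, Tagln, Krt14 and Itga6 had log2 -4.04, -3.98, -4.01 and -3.99. With 20 collagen and decorin UMIs in the gate the calls of Krt14, Tagln and Acta2 were lost (log2 -0.36, -0.55 and -0.08, adjusted p = 0.702, 0.323 and 0.914). Sostdc1 (a secreted BMP and WNT antagonist), Vwa1 (a pericellular matrix protein), Matn2 (matrilin-2), Igfbp2, Bdnf (a neurotrophin) and Il17b had log2 -6.00, -5.24, -5.01, -4.21, -4.08 and -4.02. None of these 6 passed the count filter once the other-type cells were left out, nor did Cnn1, Krt14, Itga6 and Kcna1. Cpe (carboxypeptidase E) kept its call there (log2 -3.93 over all cells, -3.26 without them). Of 4 luminal markers Krt19 was higher and Krt8 lower (11.3% and 9.06% of all genes), and without the other-type cells 2 of 6 were higher and 0 lower (6.88% and 6.25%), and of the milk genes Trf was lower (log2 -1.48), a direction that turned without the other-type cells (log2 1.33, adjusted p = 0.147). Fabp4 was the 1 fat cell marker tested, and no mural, endothelial, immune, tendon or red cell marker could be tested.

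The C57BL/6 and SWISS fibroblasts were compared as 1 library each, so this has no replicate check and no test. Both libraries were processed together, and 1 library of each strain stands for strain, mice, estrus stage and sort at once. Of 8665 genes with 30 or more UMIs over both sums, 562 stood past 2-fold (6.49%), 391 higher in C57BL/6 (4.51%) and 171 higher in SWISS (1.97%), around a median log2 of 0.10 (C57BL/6 over SWISS). With TMM over both sums 323 were higher in C57BL/6 and 213 in SWISS. The exact Poisson interval of the ratio without TMM, which covers counting error only, excluded 1 for 532 of the 562. Among the 562, 544 could be compared in the other cells of the libraries, and 187 of these (34.4%) were past 2-fold in the same direction there. The share of all genes past 2-fold in those cells, and the opposite direction, were not counted. The 34.4% therefore has no background to be read against.

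Among the genes furthest apart, Ifi202b, an interferon-inducible DNA sensor, stood at 0.380 CPM in C57BL/6 (1 UMI) and 875 in SWISS, a SWISS over C57BL/6 ratio of 2301 with an interval of 412 to 90939. It stood at 147 in A10, 124 in P7 and 0 in D12. Pianp, a membrane glycoprotein, stood at 0.761 CPM in C57BL/6 (2 UMIs) and 62.2 in SWISS, a SWISS over C57BL/6 ratio of 81.8 with an interval of 22.1 to 684. It stood at 35.5 in A10, 62.1 in P7 and 0 in D12. Both were thus present in SWISS, A10 and P7 and at or near 0 in C57BL/6 and D12. Trdn (triadin), known from muscle, stood at 0.380 CPM in C57BL/6 (1 UMI) and 53.8 in SWISS, a SWISS over C57BL/6 ratio of 142 with an interval of 24.8 to 5652. Ifi202b, Pianp and Trdn were also higher in the other cells of SWISS, with ratios of 253, 58.5 and 16.2. The UMIs of C57BL/6 in those cells were 2, 29 and 1. The differences in these genes were thus not particular to fibroblasts.

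In the other direction, Trim30d stood at 70.8 CPM in C57BL/6 and 0 in SWISS, and at 0 in A10, 0 in P7 and 42.7 in D12. Against the floor of 3 counts it was at least 39.4-fold higher in C57BL/6, and the exact interval of the ratio began at 31.7. Trim12a, also of the tripartite motif family of antiviral proteins, stood at 34.6 CPM in C57BL/6 and 0 in SWISS, and at 0 in A10, 0 in P7 and 14.2 in D12 (3 UMIs). Both were at 0 in SWISS, A10 and P7 and above 0 in C57BL/6 and D12. Both have near-identical copies (Trim30a; Trim12c and Trim5), so reads may be split between copies. Thbs4 (thrombospondin 4, a matrix protein of tendon) stood at 53.3 CPM in C57BL/6 and 0 in SWISS, and at 9.48 in A10, 0 in P7 and 0 in D12, at least 29.7-fold higher in C57BL/6 than in SWISS by the same floor, with an exact lower limit of 23.8. Myoc (myocilin, a secreted glycoprotein) stood at 134 CPM in C57BL/6 and 7.78 in SWISS (ratio 17.2, interval 9.94 to 32.7). Thbs4 had 7 UMIs in the other cells of C57BL/6 and none in those of SWISS. Myoc, at 1.83 against 0.0720 CPM, Rab6b, Ptpn5 (a phosphatase) and Eml2 (a microtubule-binding protein) were also past 2-fold higher in the other cells of C57BL/6. So were Trim30d, at 2.70 against 0.0480 CPM, and Trim12a, at 7.15 against 0.0840. The differences in these genes were thus not particular to fibroblasts. Rab6b stood at 47.2 CPM in C57BL/6 and 2.39 in SWISS in fibroblasts. Ptpn5 stood at 32.3 CPM in C57BL/6 and 1.20 in SWISS (2 UMIs), a ratio of 27.0 with an interval of 7.25 to 227. Eml2 stood at 37.3 CPM in C57BL/6 and 1.20 in SWISS (2 UMIs), a ratio of 31.2 with an interval of 8.40 to 261, and at 10.7 in A10, 10.3 in P7 (1 UMI) and 9.48 in D12 (2 UMIs), where the UMIs of P7 and D12 are too few to place them.

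Ribosomal entries moved against each other. Rpl29 stood at 1043 CPM in C57BL/6 and 56.2 in SWISS, while Gm17669, which shares a copy with it, stood at 0.380 CPM in C57BL/6 (1 UMI) and 121 in SWISS, a SWISS over C57BL/6 ratio of 318 with an interval of 56.4 to 12609. Gm10260 stood at 0.761 CPM in C57BL/6 (2 UMIs) and 357 in SWISS, a SWISS over C57BL/6 ratio of 469 with an interval of 129 to 3885. Gm11361 stood at 3.04 CPM in C57BL/6 and 107 in SWISS. Both Gm10260 and Gm11361 have close copies that include Rps18. Rpl29 has 48 other annotated genes with 95% identity or more, so the levels of these 4 are uncertain as levels of one gene. Members of the complement protease pairs also differed from each other. C1rb (chr6:124570294-124581171) stood at 0.380 CPM in C57BL/6 (1 UMI) and 66.4 in SWISS, a SWISS over C57BL/6 ratio of 175 with an interval of 30.7 to 6956, and C1s2 (chr6:124624625-124636085) at 0.380 CPM in C57BL/6 (1 UMI) and 88.5 in SWISS, a SWISS over C57BL/6 ratio of 233 with an interval of 41.1 to 9255. Their near-identical partners C1ra (chr6:124512405-124523443) and C1s1 (chr6:124530345-124542359) had C57BL/6 over SWISS ratios of 2.40 and 1.28. Summed over each pair the ratios were 1.24 for C1ra with C1rb and 0.951 for C1s1 with C1s2, so the pairs as a whole differed by less than 2-fold. No such sum was made for the ribosomal entries. In the other cells Rpl29 was 15.2-fold higher in C57BL/6. Gm10260, Gm17669, Gm11361, C1rb and C1s2 were 313-, 160-, 27.6-, 21.1- and 19.5-fold higher in SWISS there. These differences too were not particular to fibroblasts.

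**Figure D5:**
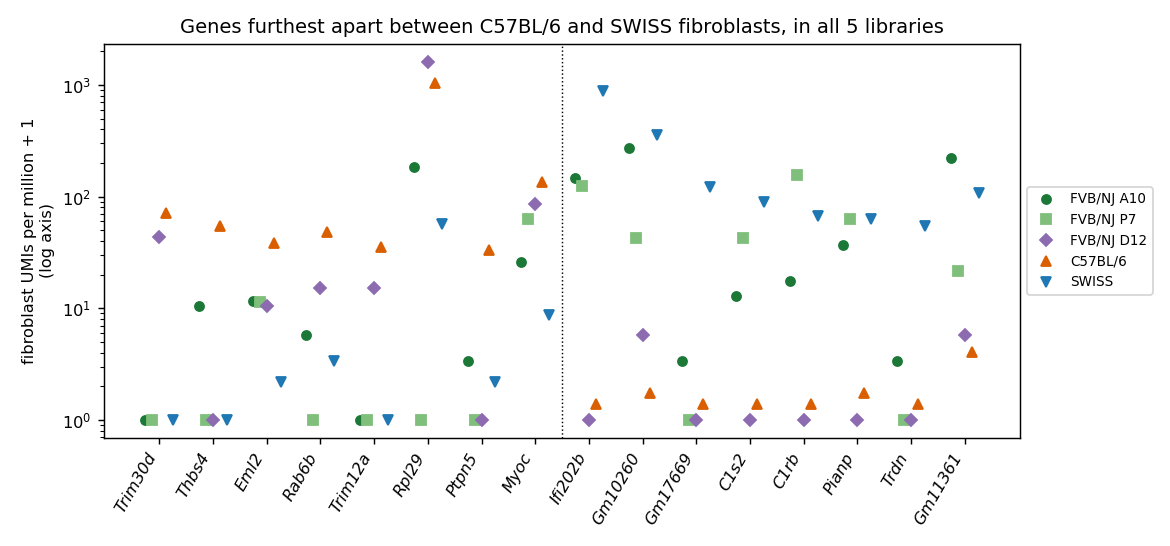
Fibroblast CPM plus 1 (log axis) in the 5 libraries for the 8 genes furthest higher in C57BL/6 (left of the dotted line) and the 8 furthest higher in SWISS (right); each symbol is 1 library and a symbol at 1 is no UMI. D12, labelled FVB/NJ, lies near C57BL/6 for Trim30d, Trim12a and Rpl29 and for the 8 genes on the right, but at 0 with SWISS for Thbs4 and Ptpn5. A10 and P7 lie near SWISS for Trim30d, Trim12a, Ifi202b and Pianp, and near 0 with C57BL/6 and D12 for Gm17669 and Trdn.

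Over the lists, members past 2-fold were counted beside the 6.49% of all genes. Of 13 collagens 1 was past 2-fold (Col8a1, ratio 2.74), of 14 elastic fibre genes 0, of 11 collagen processing genes 0, of 8 WNT list members 0, of 6 IGF binding proteins 0 and of 13 transcription factors 0. Of 19 proteoglycans and glycoproteins Cilp, a cartilage intermediate layer protein, was higher in C57BL/6 (ratio 5.11, interval 3.53 to 7.62) and Postn and Sparcl1 were higher in SWISS (SWISS over C57BL/6 ratio 2.08 and 4.21). Of 17 Pi16 and Dpp4 fibroblast genes 1, Uchl1, was past 2-fold, and Dpp4 had a ratio of 1.04 (interval 0.943 to 1.14). Of 14 Col15a1 and preadipocyte genes 4 were higher in SWISS, Fabp4, Lpl, Apoe and Sparcl1, and 2 in C57BL/6, Vcam1 and Hmcn2. Apoe stood at 557 CPM in C57BL/6 and 2469 in SWISS and Lpl at 199.7 CPM in C57BL/6 and 517 in SWISS. Of 19 growth factors Fgf2, Fgf10 and Ereg were higher in SWISS. Of the other lists, Pgr, Cxcl14, C1ra, Fosb, Nr4a1 and Hspa1b were higher in C57BL/6 and Serpina3n and H2-Q7 in SWISS. Markers of other cells moved in both directions, with Acta2, Cnn1, Mylk, Prlr, Kdr, Ncam1 and Trf higher in C57BL/6 and Wfdc18 and Fabp4 in SWISS, and their part was not tested.

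All 4 cell cycle genes with enough UMIs were higher in SWISS fibroblasts, Top2a, Pclaf, Ube2c and Tyms (1.97% of all genes). Top2a stood at 0.761 CPM in C57BL/6 (2 UMIs) and 19.7 in SWISS, a SWISS over C57BL/6 ratio of 25.9 with an interval of 6.64 to 223. Cells with 3 or more of the 9 cycle genes numbered 8 of 415 in SWISS, of which 6 also had more than 5 keratin UMIs, and 0 of 619 in C57BL/6, which allows a share of up to 0.485% (3 counts of the total) of cells with such UMIs and sets no limit on cells that express these genes. They were 3 of 175 in A10, all keratin-bearing, 0 of 36 in P7 and 1 of 36 in D12. In the other cells they made up 29.2% in SWISS and 1.10% in C57BL/6.

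Beyond the adult gland the same gate found few Pi16-positive cells before puberty. The share was 17 of 605 gated cells at E18.5 (2.81%), 6 of 378 at postnatal day 5 (1.59%) and 0 of 390 in the pre-puberty library, which allows up to 0.769% of cells with a Pi16 UMI and sets no limit on cells that express it. In the pubertal libraries it was 1 of 28 in ducts and 0 of 3 in end buds, and in embryonic skin 8.61%. These libraries were labelled C57BL/6, as was the adult library where the share was 91.0%. By the paper, tissue at E18.5 came from Lgr5-GFP embryos and pubertal tissue from E-cadherin-GFP females, both dissected under fluorescence. Median depth of the gated cells was 4226 UMIs before puberty and 4369 in the adult. In FVB/NJ mice it was 67.4% of 132 cells after involution, 46.3% of 67 and 63.9% of 441 in lactation, and 5.92% to 18.8% in the 4 pregnancy libraries, where gated cells carried a median of 11 to 105 collagen and decorin UMIs and numbered 16 to 152. The stages had 1 or 2 libraries each, and these differences were not tested.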

How the data were processed

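Single-cell 3' RNA libraries of sorted mammary cells were made by the authors with a 10x Genomics v2 kit. The deposited matrices hold UMI counts per gene and cell barcode, not normalized, made by the authors with Cell Ranger (3.0.2 per the file headers of the adult libraries, 3.1.0 in the submitters' processing notes) on mm10. Fibroblasts were gated as described, counts were summed per library, or per library and Pi16 class, and CPM refer to the total of each sum. edgeR 4.0.16 (R 4.3.3; TMM, filterByExpr, quasi-likelihood test, Benjamini-Hochberg adjustment) compared Pi16 classes with library as a block, since both sums come from the same pool; a library needed 10 cells in each class. DESeq2 1.42.0 was an alternative. Scripts were tested on simulated data. No doublet caller was run; the Epcam and Ptprc limits, and the study's upper limits as an alternative, stood in. Named genes were the 12 largest called rises and 12 falls with a mean of at least 20 CPM and one sign in 5 libraries, the 8 largest ratios in each direction between C57BL/6 and SWISS, and the 12 with the largest smallest difference from other cells; other genes come from lists. Members and lists were chosen with earlier results of these data known. Intervals are exact and cover counting error only. A10 shared 76 barcodes with D12 and C57BL/6 shared 39 with SWISS among kept cells; no cell was removed for it. Results for some list members are not reported here.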

Additional observations from a re-analysis of the deposited data

Results flagged for a closer look

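Listed genes were compared for opposite directions of the Pi16 contrast between the FVB/NJ libraries and the C57BL/6 and SWISS libraries, as log2 of CPM plus 5 in Pi16-positive over Pi16-negative cells. In 5 of 191 genes compared (2.62%), a share near the 2.76% of all 3477 tested genes, every FVB/NJ library, D12 included, moved one way and both others the opposite way; the difference was not tested, and none of the 5 passed in the joint edgeR fit. Ccl11 (the eosinophil chemokine) had a median of 0.967 in FVB/NJ (range 0.51 to 1.89), -1.10 in C57BL/6 and -0.57 in SWISS (edgeR adjusted p of the joint contrast 0.898). Cxcl13 (a B cell chemokine) had a median of 1.58 in FVB/NJ (range 1.07 to 4.23), -0.59 in C57BL/6 and -1.01 in SWISS (edgeR adjusted p of the joint contrast 0.729). Cst3 (cystatin C, a protease inhibitor) had a median of 0.900 in FVB/NJ (range 0.31 to 0.91), -1.35 in C57BL/6 and -0.25 in SWISS (edgeR adjusted p of the joint contrast 0.8). Ctsk (cathepsin K, a collagen-cutting protease) had a median of 0.456 in FVB/NJ (range 0.44 to 3.55), -0.78 in C57BL/6 and -1.24 in SWISS (edgeR adjusted p of the joint contrast 0.777). Il6 (a cytokine) had a median of -1.12 in FVB/NJ (range -1.25 to -0.68), 0.46 in C57BL/6 and 1.06 in SWISS (edgeR adjusted p of the joint contrast 0.669). The direction in FVB/NJ is the same without D12.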

How the results depend on the processing

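The count of 709 genes between Pi16 classes (394 higher, 315 lower) was within 1.5 times of itself with the study's limits on cells, 20 collagen UMIs, 2 Pi16 UMIs for a positive cell, no TMM, without other-type cells (561) and with D12 added (560; both this and leaving out vascular and Schwann cells alone, 571, were chosen after seeing the data). It was 354 (196 higher, 158 lower) with cells thinned to 1500 UMIs, where 1601 genes could be tested, and 1476 (826 and 650) without the low-count filter. Without the replicate block it was 261 (139 and 122). DESeq2 gave 499 lower. The fit with 20 collagen UMIs used 3 libraries and 4528 genes, and 418 of its 646 calls were among the 709. Totals near each other thus need not hold the same genes. Leaving out 1 library at a time gave 392 to 939 in all, 214 to 482 higher and 178 to 457 lower, with the lowest counts without C57BL/6 and the highest without P7; without SWISS 239 were higher. D12 was not in the fit, so leaving it out changes nothing and is not counted. Of the other values of the 24 named genes under alternatives, 320 of 360 could be tested. Of these 317 kept direction and call, 3 lost the call and none reversed. The alternatives reuse cells that chose these genes, so this tally is no independent support. The 40 that could not be tested include 12 with thinning, 9 without other-type cells and 6 with 20 collagen UMIs. With 20 collagen UMIs the median Pi16-positive share of the 5 libraries was 93.6% in place of 75.0%. Between C57BL/6 and SWISS, 210 genes were past 2-fold with 100 or more UMIs (150 higher in C57BL/6, 60 in SWISS) and 101 were past 4-fold (68 and 33). Thinning left 400 of 5671 genes past 2-fold, 101 of them higher in SWISS, and 185 of the 400 were among the 562. After thinning the log2 of Thbs4 was 3.26 in place of 4.89, and that of Ifi202b -8.04 in place of -9.58. The median matrix difference of 3.62 over the 58 listed genes, gate genes included, was 4.13 without other-type cells, 4.68 with 1 CPM added and 2.65 with 20. Pi16 contrasts rest on 17 to 62 negative cells in each library of the fit, which limits what low genes can show.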
